A study of Mus musculus with 26 samples.

Results

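The 10 genes described here are used to recognise tuft cells: Pou2f3, Gfi1b, Trpm5, Dclk1, Rgs13, Sh2d6, Alox5ap, Ptgs1, Il25 and Il17rb. They were picked by name, in upper case for human, from 3 tables of RNA sequencing read counts, and all 10 were listed in each table, among 40481 genes in either mouse table and 55093 genes in the human table. The series compared intestinal epithelium with and without Fgfr1op, a gene for a centrosomal protein also known as FOP. Small intestinal spheroids, which are epithelial cultures in Matrigel, came from Fgfr1op knockout (KO) and wild-type (WT) mice, 4 mice in each group, and were collected at day 3 after 250 nM hydroxytamoxifen, which both genotypes received. Crypt-enriched cells of the small intestine came from KO and WT mice at day 6 or day 9 after tamoxifen, 3 mice of each genotype at each day, so that 6 KO and 6 WT libraries were compared with both days together. Caco-2 is a human colorectal adenocarcinoma line, and its cells carried a doxycycline-inducible hairpin against Fgfr1op (shFgfr1op) or a scramble hairpin, with 3 libraries in each group at day 3 after doxycycline. The strain, age and sex of the mice and the promoter of the inducible recombinase are not given in the sources used here. The labels do not say whether the Caco-2 libraries stem from separate cultures, so the p-values given for them reflect library-to-library spread, which may be technical.

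Tuft cells are rare chemosensory cells of the intestinal epithelium. They use a signalling chain borrowed from taste cells, in which a receptor activates a G protein and phospholipase C, calcium is released, and the cation channel TRPM5 opens. On activation they release IL-25 and lipid mediators made from arachidonic acid, which act on type 2 innate lymphoid cells, and the IL-13 of those cells acts back on crypt progenitors to give more tuft and goblet cells. POU2F3 is the transcription factor that the lineage needs.

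The members lie on 8 mouse chromosomes in the GENCODE M21 annotation of mm10, the build named in the submitters' processing notes. Pou2f3 spans 43123939 to 43210369 on chromosome 9 and Dclk1, the longest, spans 55242364 to 55539068 on chromosome 3. Il25 and Il17rb share chromosome 14, at 54932695 to 54935837 and at 29996135 to 30008896, and Gfi1b and Ptgs1 share chromosome 2. RefSeq upstream sequences (GRCm38.p6) were found for 7 of the 10 members, and Dclk1 had 2 of them. The octamer that POU factors bind, spelled ATGCAAAT and searched on both strands, was found in 0 of these 8 windows of 300 bases, against 1.74% of the 32851 windows of all genes, which says only that these letters are not there. The members' upstream regions differed in how many CG dinucleotides they held. Rgs13 had 0 CG in the 250 bases before its start, as few as in 7.87% of all such regions. Il17rb had 27, and 92.4% of regions had as many or fewer. The other 6 regions held 4 or 5, near the median of 6 over all genes. These extremes are printed here with CG in capitals, 5′ to 3′ on the strand of the gene, for Rgs13 from chr1:144177373-144177622 (minus strand) and for Il17rb from chr14:30008897-30009146 (minus strand).
Rgs13: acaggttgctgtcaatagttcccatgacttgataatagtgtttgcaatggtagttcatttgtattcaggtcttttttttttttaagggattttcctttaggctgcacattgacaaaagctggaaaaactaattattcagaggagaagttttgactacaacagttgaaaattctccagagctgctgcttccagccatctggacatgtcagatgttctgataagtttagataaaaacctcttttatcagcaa
Il17rb: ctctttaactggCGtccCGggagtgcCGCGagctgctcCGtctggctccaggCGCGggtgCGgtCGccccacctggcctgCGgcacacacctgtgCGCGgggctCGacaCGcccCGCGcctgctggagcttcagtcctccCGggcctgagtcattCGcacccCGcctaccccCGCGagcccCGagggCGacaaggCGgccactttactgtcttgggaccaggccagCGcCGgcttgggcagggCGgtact

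Total counts lay between 48068740 and 103352863 in crypt libraries, between 44152608 and 67630241 in spheroid libraries and between 37281821 and 50965004 in Caco-2. Levels are in CPM, reads of a gene per 1e6 reads of its library after TMM scaling of the totals, and a gene was called at an adjusted p below 0.05. Crypt libraries are numbered as in the table, whose headers show the genotype beside a serial number and leave the day out. On the first principal component of all genes, which held 56.0% of the variance in crypts, KO libraries 4, 5 and 6 stood apart at 102, 124 and 107, while the other 9 libraries lay between -64.4 and 5.16. For the genes named as called in crypts, values are therefore also given without those 3 libraries. The headers do not say whether these 3 KO libraries come from mice of 1 day, and the part of the day in their position was not tested. The targeted gene was read in every KO library. In spheroids Fgfr1op stood at 17.5, 19.8, 14.99 and 17.2 CPM in KO libraries 1 to 4 and at 23.5, 23.3, 24.4 and 21.7 CPM in WT libraries 1 to 4 (log2 fold change -0.42 ± 0.09 (SE), adjusted p = 0.117 by edgeR's quasi-likelihood test). In crypts it stood at 11.7, 24.2, 18.7, 25.9, 24.1 and 21.8 CPM in KO libraries 1 to 6 and between 25.2 and 39.01 CPM in WT, so that KO library 4 lay within the WT range (-0.65 ± 0.19, adjusted p = 0.0261 by edgeR, and -0.85 ± 0.24, 0.0483 without KO libraries 4, 5 and 6). In Caco-2 it stood at 6.43, 6.78 and 7.26 CPM with the hairpin and at 15.8, 15.9 and 15.5 CPM with scramble (-1.20 ± 0.09, adjusted p = 1.65e-14 by edgeR).

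In crypts, tuft cell genes were lower in KO than in WT mice. Of the 10 members, 9 passed the filter on low counts, all 9 had a fold change below 0, and 7 were called lower: Pou2f3, Gfi1b, Dclk1, Sh2d6, Alox5ap, Ptgs1 and Il17rb. Of all 16413 genes tested in crypts, 10.5% were called lower and 14.0% higher. The median log2 fold change of the 9 members was -1.75, against 0.05 over all genes tested. The groups did not overlap for 5 of the 9 members, against 10.6% of all genes tested. Summed over the 10 members, the level was 26.8, 30.1, 31.5, 11.1, 13.9 and 12.2 CPM in KO libraries 1 to 6. In WT libraries 1 to 6 the sum was 48.8, 44.5, 40.9, 67.6, 82.6 and 60.7 CPM, with a median of 54.8 CPM. WT libraries 4, 5 and 6 thus all lay above WT libraries 1, 2 and 3. In bulk RNA, fewer tuft cells and less of these RNAs per tuft cell cannot be told apart.

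**Figure D1:**
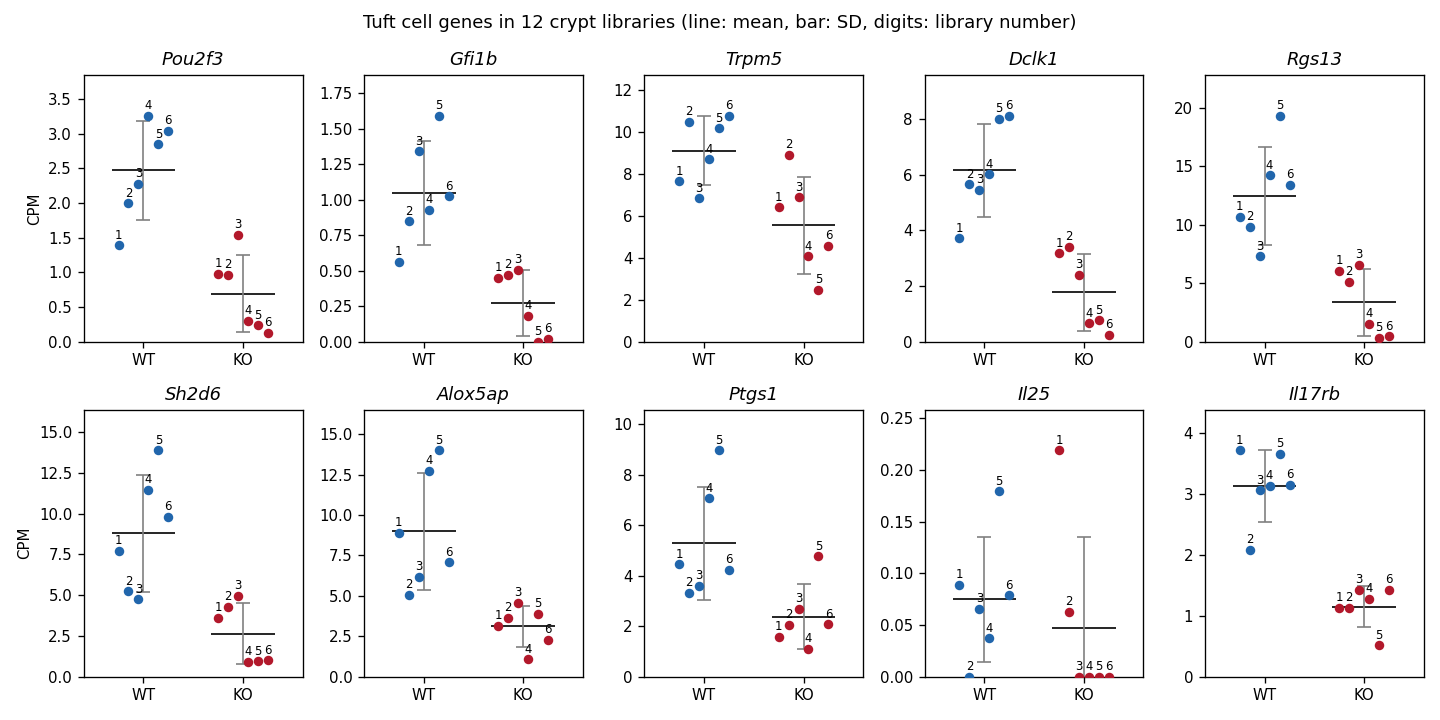
Level of each of the 10 members in CPM (y axis, each panel from 0) in the 6 WT and 6 KO crypt libraries (x axis), with library numbers at the points, the mean as a line and the SD as a bar. The groups do not overlap for Gfi1b, Dclk1, Rgs13, Alox5ap and Il17rb, and for Ptgs1 KO library 5 lies at 4.77 CPM among the WT libraries.

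Both transcription factors among the members fell in KO crypts. Pou2f3 had a lowest, median and highest level of 0.130, 0.629 and 1.54 CPM in KO and of 1.39, 2.56 and 3.26 CPM in WT. KO library 3 was the one KO library above a WT library, and KO libraries 4, 5 and 6 were lowest. The log2 fold change was -1.84 ± 0.50 (SE, n = 6 and 6), with an adjusted p of 0.0189 by edgeR. Gfi1b, a zinc-finger repressor that tuft cells share with megakaryocytes and erythroid cells, stood at 0, 0.315 and 0.508 CPM in KO and at 0.562, 0.975 and 1.59 CPM in WT, on 119 and 409 reads in all. Its groups did not overlap, and KO library 5 had no read, where up to 3 reads cannot be told from 0. The log2 fold change was -1.93 ± 0.67 with an adjusted p of 0.0490 by edgeR, and it missed the threshold in 8 of the 12 fits that left out 1 library (KO library 4 or 6, or any WT library), at adjusted p values up to 0.0977.

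Dclk1, a microtubule-associated kinase and the most used tuft marker in mouse intestine, stood at 3.18, 3.42, 2.40, 0.662, 0.769 and 0.239 CPM in KO libraries 1 to 6. In WT libraries 1 to 6 it stood at 3.72, 5.65, 5.47, 6.01, 8.01 and 8.12 CPM. All 6 KO libraries lay below all 6 WT libraries, and KO library 6 was lowest. Its log2 fold change was -1.79 ± 0.53 (adjusted p = 0.0266 by edgeR), and an exact two-sided permutation test on CPM gave 0.00216, the smallest p that 6 against 6 libraries allow. The call was lost, at adjusted p values up to 0.0570 by edgeR, when KO library 4 or 5 or WT library 5 or 6 was left out.

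Among the genes of signal transduction, Sh2d6, an SH2 domain protein, fell, while Trpm5 and Rgs13 narrowly missed the threshold. Sh2d6 stood at 0.909, 2.31 and 4.94 CPM (lowest, median and highest) in KO and at 4.75, 8.74 and 13.9 CPM in WT. KO library 3 overlapped the lowest WT library (log2 fold change -1.75 ± 0.48, adjusted p = 0.0203 by edgeR). Rgs13, which encodes a regulator that shortens G-protein signals, was the most abundant member by CPM in WT crypts and stood at 6.08, 5.12, 6.59, 1.56, 0.355 and 0.457 CPM in KO libraries 1 to 6. Its WT libraries lay at 7.30, 12.04 and 19.3 CPM, above every KO library, yet the adjusted p was 0.0504 by edgeR for a log2 fold change of -1.89 ± 0.65, and it passed when KO library 1 or 3 was left out (0.0362 and 0.0324). Trpm5, the cation channel at the end of the taste pathway, showed the smallest difference among the 9 tested members, -0.71 ± 0.26, with an adjusted p of 0.0588 by edgeR. It stood at 2.47, 5.48 and 8.91 CPM in KO and at 6.82, 9.43 and 10.8 CPM in WT, so that KO libraries 2 and 3 lay within the WT range, and it passed when either of these was left out (adjusted p = 0.0209 and 0.0445 by edgeR).

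Neighbouring branches of arachidonic acid metabolism were represented by Alox5ap, whose product hands arachidonic acid to the 5-lipoxygenase that starts leukotriene synthesis, and by Ptgs1, the constitutive cyclooxygenase that starts prostaglandin synthesis. Both fell. Alox5ap stood at 1.06, 3.39 and 4.57 CPM in KO and at 5.08, 7.98 and 14.0 CPM in WT, without overlap (log2 fold change -1.54 ± 0.34, adjusted p = 0.00693 by edgeR). Ptgs1 stood at 1.58, 2.06, 2.70, 1.10, 4.77 and 2.07 CPM in KO libraries 1 to 6 and at 3.33, 4.35 and 8.97 CPM in WT. KO library 5 was above 4 WT libraries, and the other 5 KO libraries were below all of them (-1.15 ± 0.35, adjusted p = 0.0275 by edgeR). The call of Ptgs1 was lost, at adjusted p values up to 0.0642, without KO library 4 or 6 or WT library 4 or 5. Both genes are also active in mast cells and myeloid cells, whose markers are given below.

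The cytokine itself was barely read. Il25 had 24 reads over the 6 KO libraries, 20 of them in library 1, and 26 reads over the 6 WT libraries, and it was removed by the filter on low counts. Il17rb, the receptor chain for IL-25, stood at 1.13, 1.13, 1.43, 1.27, 0.513 and 1.42 CPM in KO libraries 1 to 6. In WT libraries 1 to 6 it stood at 3.72, 2.08, 3.06, 3.13, 3.66 and 3.15 CPM. The groups did not overlap, and the KO libraries other than library 5 lay close to each other, those that stood apart on the first principal component included. The log2 fold change of -1.44 ± 0.25 had the smallest adjusted p of the members, 0.00252 by edgeR.

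**Figure D2:**
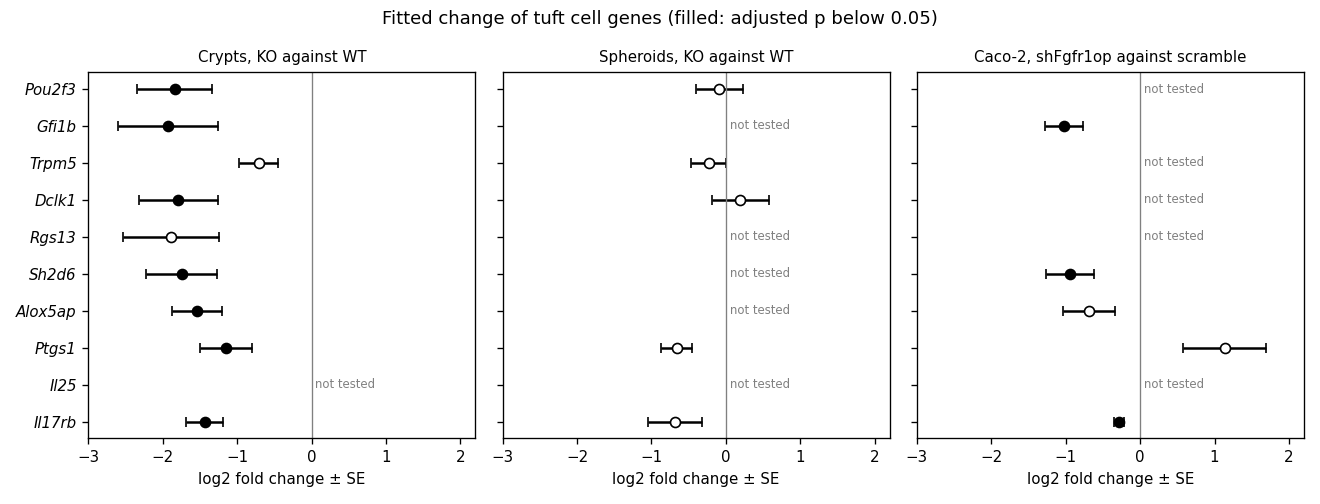
Fitted log2 fold change of each member (x axis, with its SE as a bar) in crypts, spheroids and Caco-2 cells, filled where the adjusted p was below 0.05. In crypts the 9 tested members lie between -1.93 and -0.71, in spheroids the 5 tested members lie between -0.69 and 0.19, and in Caco-2 the 5 tested human orthologues lie between -1.02 and 1.14.

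Without KO libraries 4, 5 and 6, all 9 members still had fold changes below 0, with a median of -1.09 against 0.03 over all genes. Of the 9, 5 were called lower (Dclk1, Rgs13, Alox5ap, Ptgs1 and Il17rb), where 2.74% of 16924 genes were, and 5.46% were called in either direction. Il17rb stood at -1.34 ± 0.26 (adjusted p = 0.0110 by edgeR), Ptgs1 at -1.32 ± 0.34 (0.0372) and Alox5ap at -1.24 ± 0.32 (0.0373). Dclk1 stood at -1.04 ± 0.27 (adjusted p = 0.0386 by edgeR) and Rgs13 at -1.07 ± 0.28 (0.0373). Pou2f3 (-1.09 ± 0.32, adjusted p = 0.0557 by edgeR), Gfi1b (-1.13 ± 0.36, 0.0760) and Sh2d6 (-1.03 ± 0.33, 0.0752) no longer passed, and Trpm5 stood at -0.30 ± 0.22 (0.447). This comparison without the 3 libraries was chosen after their position on the first component was seen. It kept all 6 WT libraries, among which libraries 4, 5 and 6 had the highest summed level of the members. KO libraries 1, 2 and 3 were not compared with WT libraries 1, 2 and 3 alone. If KO libraries 4, 5 and 6 share a day, KO mice of 1 day stood here against WT mice of both days.

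The other genes of the tuft programme, a list of 44 of which 39 were tested in crypts, had a median log2 fold change of -0.87. There 14 were called lower and 1 higher, against 10.5% and 14.0% of all genes tested in crypts. The groups of 9 did not overlap, against 10.6% of all genes tested. In the leukotriene and prostaglandin branches, Alox5, the 5-lipoxygenase itself, fell by 2.09 ± 0.45 on the log2 scale, from 7.76 ± 3.36 CPM (mean ± SD, n = 6) in WT to 1.82 ± 1.26 CPM in KO. Hpgds, the prostaglandin D synthase of haematopoietic cells, fell by 1.23 ± 0.34, and without KO libraries 4, 5 and 6 it stood at -0.66 ± 0.28 (adjusted p = 0.167 by edgeR). Ltc4s, the leukotriene C4 synthase, stood at -1.51 ± 0.53 with an adjusted p of 0.0542 by edgeR, and Chat, which makes acetylcholine, at -1.94 ± 0.71 with an adjusted p of 0.0603. Pla2g4a, the phospholipase that frees arachidonic acid in many cell types, stood at 0.18 ± 0.27.

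In the taste pathway, 3 of 9 tested genes fell: Plcb2, the phospholipase C upstream of Trpm5, by 1.25 ± 0.42 on the log2 scale, Pik3r5 by 1.09 ± 0.36 and Pik3cg, the catalytic partner of Pik3r5, by 0.94 ± 0.29. Without KO libraries 4, 5 and 6 none of these 3 calls held: Plcb2 stood at -0.66 ± 0.39, Pik3r5 at -0.51 ± 0.28 and Pik3cg at -0.69 ± 0.34 (adjusted p = 0.335, 0.291 and 0.238 by edgeR). Sucnr1, the succinate receptor, missed the threshold at -1.76 ± 0.64 (adjusted p = 0.0570 by edgeR) on levels of 0.125 ± 0.117 CPM in KO and 0.431 ± 0.240 CPM in WT. Plcg2 and Tas1r3 stood at 0.02 ± 0.17 and 0.01 ± 0.24. Gnat3, the taste G protein gustducin, had 33 reads in KO and 99 in WT and was not tested.

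Signalling and cytoskeletal genes gave 7 falls and 1 rise among 16 tested. The falls included Smpx (-2.44 ± 0.67), Bmx (-2.35 ± 0.76), Nebl (-2.17 ± 0.41), Lrmp (-1.85 ± 0.46), Fyb (-1.26 ± 0.30) and Vav1 (-0.70 ± 0.20). Bmx is a tyrosine kinase, Vav1 a guanine nucleotide exchange factor and Fyb an adaptor, and all 3 are also expressed in blood cells. In crypts 0 of 8 lymphoid and 0 of 5 platelet and erythroid markers were called, with medians of 0.21 and 0.11. Of all genes tested there, 10.5% were called lower and 14.0% higher. Without KO libraries 4, 5 and 6 these medians were -0.44 and -0.97, with 0 called, against 5.46% of all genes. The part of blood cell RNA in the falls was not tested. Krt23, a keratin, rose by 1.56 ± 0.43, and its 3 highest libraries were KO 4, 5 and 6, at 35.1, 54.3 and 28.7 CPM against 6.95 to 11.3 CPM in WT. Without those libraries Krt23 stood at 0.20 ± 0.21 (adjusted p = 0.606 by edgeR). Among surface molecules, Ly6g6f fell by 1.91 ± 0.62 and Siglecf by 0.87 ± 0.26, while Cd300lf, Il13ra1 and Il4ra stood at -0.71 ± 0.30, -0.06 ± 0.18 and 0.77 ± 0.31 and were not called. Without KO libraries 4, 5 and 6, 41 genes of the list were tested, 5 were called lower (among them Nebl at -1.59 ± 0.36, Alox5 at -1.46 ± 0.37, Bmx at -1.43 ± 0.38 and Lrmp at -1.27 ± 0.33), 0 were called higher, and the median was -0.66. The calls of Smpx (-1.63 ± 0.51, adjusted p = 0.0742 by edgeR), Fyb (-0.82 ± 0.28, 0.0967), Vav1 (-0.58 ± 0.26, 0.202), Ly6g6f (-1.09 ± 0.44, 0.153) and Siglecf (-0.95 ± 0.35, 0.116) were lost there.

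**Figure D3:**
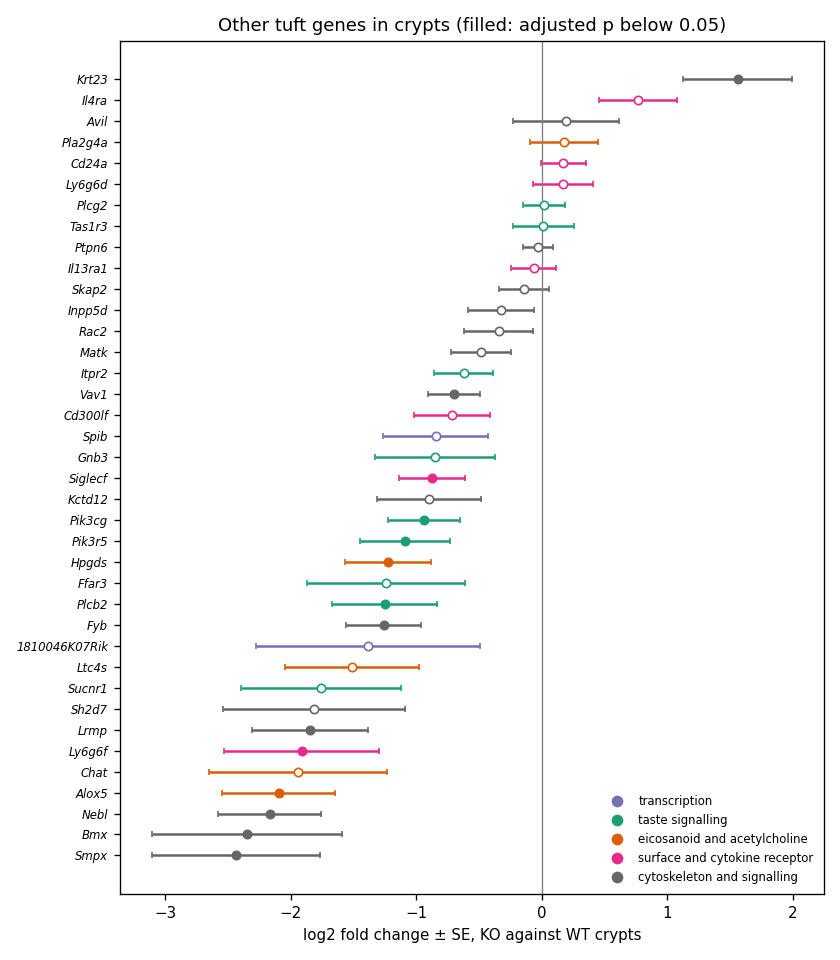
Log2 fold change (x axis, with SE) of the tested genes of the wider tuft programme that are reported here by name, in KO against WT crypts, coloured by role and filled where the adjusted p was below 0.05. The filled points below 0 reach down to Smpx at -2.44, and Krt23 at 1.56 is the 1 filled point above it.

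Markers of other epithelial cells gave few calls, where 10.5% of all genes tested in crypts were called lower and 14.0% higher. In goblet cells, the mucus secretors, 1 of 9 genes rose (Spdef, 1.13 ± 0.36) and 0 fell, yet 7 of the 9 stood below 0, with a median of -0.51. Goblet genes summed to between 5993 and 9168 CPM in KO and between 8751 and 13327 CPM in WT. In Paneth cells, the antimicrobial cells of the crypt base, 0 of 7 passed, although all 7 stood below 0 with a median of -0.93. Of 13 enteroendocrine genes 1 fell, Tph1 (-0.68 ± 0.23), the serotonin-synthesis enzyme, and the median was -0.59. Krt8, a keratin of all simple epithelia, rose by 1.04 ± 0.23 on the log2 scale (adjusted p = 0.00726 by edgeR). Without KO libraries 4, 5 and 6 no gene of these lists was called: Spdef stood at 0.43 ± 0.34, Tph1 at -0.30 ± 0.20 and Krt8 at 0.58 ± 0.22, and the medians were -0.29 in goblet, -0.21 in Paneth and -0.08 in enteroendocrine genes. Paneth genes summed to 7627, 11447 and 7127 CPM in KO libraries 4, 5 and 6 and to between 32211 and 79598 CPM in the other 9 libraries. Olfm4, a stem cell gene, stood at 22.4, 17.0 and 8.37 CPM in KO libraries 4, 5 and 6 and between 428 and 1998 CPM in the others. The part of these shifts in crypt makeup in the fall of the tuft genes was not tested, and the values of the members without the 3 libraries are those given above.

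Several mast and myeloid markers were high in the same 3 libraries. Of the 11 tested, 1 was called higher (Cd68, 1.54 ± 0.45) and 1 lower (Itgam, -1.11 ± 0.25). Without the 3 libraries 0 were called by edgeR, with Cd68 at 0.15 ± 0.26 and Itgam at -0.79 ± 0.27. There 9 of the 11 stood below 0, with a median of -0.36. The mast cell genes Cpa3, Mcpt1 and Mcpt2 stood at -1.32 ± 0.90, -1.25 ± 0.58 and -1.04 ± 0.73 (adjusted p = 0.407, 0.218 and 0.427 by edgeR). The summed level of the list, most of it from Lyz2 and Itgam, was 180, 284, 256, 97.7, 251 and 122 CPM in KO libraries 1 to 6. In WT it lay between 224 and 472 CPM. The mast cell proteases were highest in KO library 5: Cpa3 stood at 2.96 CPM there, against at most 0.472 CPM in WT, and Mcpt1 at 13.7 CPM, against at most 3.23 CPM in WT. In KO libraries 1, 2 and 3, Mcpt1 stood at 1.34, 0.614 and 0.302 CPM and Cpa3 at 0.197, 0 and 0.0316 CPM, none above the highest WT library, and there Ptgs1 stood at no more than 2.70 CPM and Alox5ap at no more than 4.57 CPM. The part of mast and myeloid RNA in the levels of Ptgs1 and Alox5ap, in KO library 5 or in the others, was not tested.

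The type 2 lymphoid arm of the tuft circuit was close to unread. Il13 had no read in any of the 12 crypt libraries, which allows up to 3 reads in each, Il5 had 0 reads in KO and 2 in WT, and Il4 had 54 and 19. Areg, an epidermal growth factor family ligand made by type 2 lymphoid cells and by epithelium, rose by 5.08 ± 0.92 on the log2 scale, from 1.28 ± 0.93 to 43.7 ± 41.3 CPM, and without KO libraries 4, 5 and 6 by 2.44 ± 0.52 (adjusted p = 0.0233 by edgeR). The summed level of the 7 type 2 lymphoid genes was 9.08, 5.46, 8.32, 70.0, 76.3 and 97.6 CPM in KO libraries 1 to 6 and at most 3.40 CPM in WT. On average, Areg made up nearly all of this sum in KO and a smaller share, though most of it, in WT. Il1rl1 and Klrg1, which mark type 2 lymphoid cells, had 49 and 14 reads in KO and 19 and 2 in WT and were not tested.

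**Figure D4:**
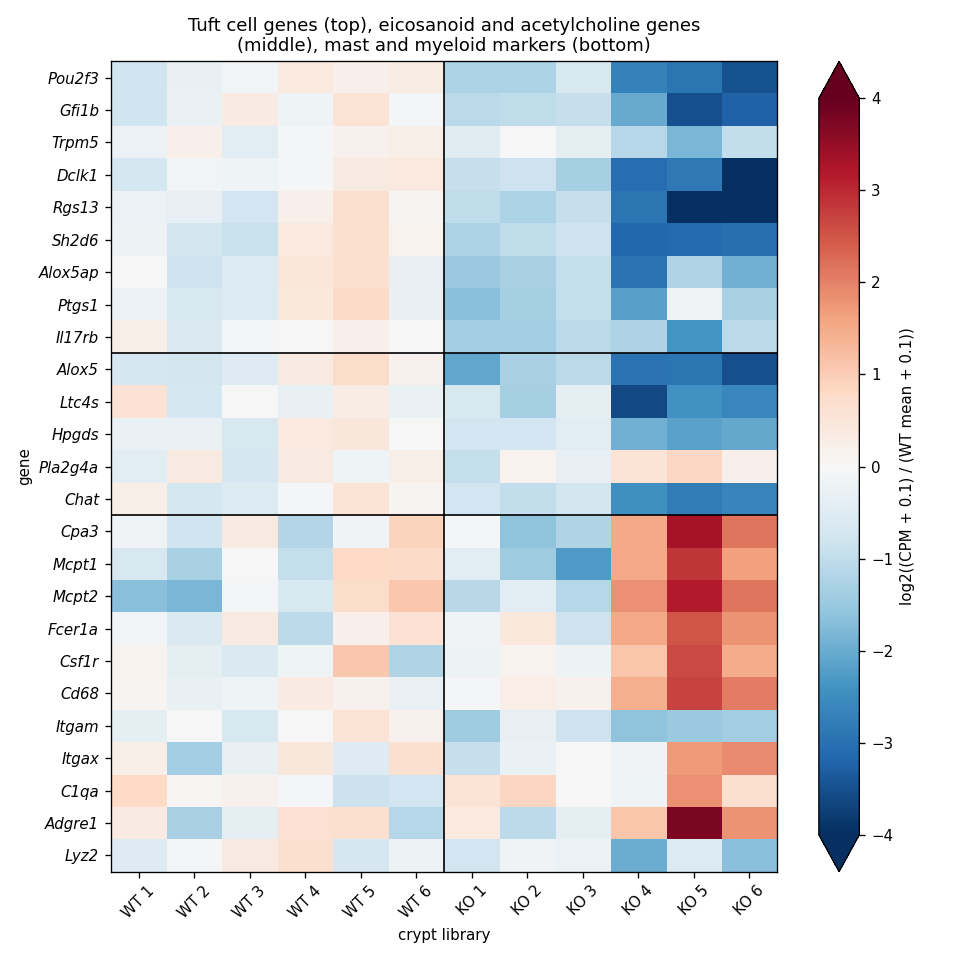
Level of each gene (rows) in each crypt library (columns) as the log2 ratio of CPM + 0.1 to the WT mean + 0.1, with colours held at -4 and 4. Pou2f3, Gfi1b, Dclk1, Rgs13, Sh2d6 and Alox5 are darkest blue in KO libraries 4, 5 and 6, in which Cpa3, Mcpt1, Mcpt2 and Cd68 are red, while Il17rb is of nearly the same blue in KO libraries 1, 2, 3, 4 and 6.

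The genes whose level followed the members most closely over the 12 crypt libraries, once the mean of each genotype was removed, included Hpgds, Acat1, Bmx, A430035B10Rik, Oat, Zfp931, Gsdmcl2, Strip2 and Pigr. Of the first 10, 3 belong to the wider tuft list, against 1 by Spearman's rank correlation and 1 with genotype means kept. Likeness was Pearson's r with the mean standardised log2 level of the tested members. The members did not all follow each other: against the other members, r was 0.02 for Ptgs1, 0.29 for Il17rb and 0.98 for Sh2d6. Since KO libraries 4, 5 and 6 stand apart, r of the first 10 genes is given within the 6 WT libraries. It ran there from 0.85 for Zfp931 to 0.96 for Strip2. None of these 10 was among the 10 closest in the WT libraries alone, where they ranked from 33 (Strip2) to 475 (Zfp931). Ranked in those libraries, Fyb had rank 1 and Alox5 rank 3 among 16404 genes, with r of 0.995 and 0.989 over 6 libraries. Within WT the members did not all vary together: over their 36 pairs r ran from -0.33 for Trpm5 and Il17rb to 0.97 for Alox5ap and Ptgs1.

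Per kilobase of exon, the order of the members in WT crypts was Rgs13, Alox5ap, Sh2d6, Trpm5, Ptgs1, Il17rb, Pou2f3, Gfi1b, Dclk1 and Il25. Rgs13 stood at 7.53 ± 2.54 CPM per kilobase (SD, n = 6), Alox5ap at 6.33 ± 2.56 and Sh2d6 at 5.21 ± 2.12, and these overlapped. A step followed to Trpm5 at 1.42 ± 0.26 and Ptgs1 at 1.36 ± 0.58, which overlapped each other, while Trpm5 and Sh2d6 did not overlap. From Trpm5 down to Dclk1 each member overlapped the next, and Dclk1 did not overlap Il25. Dclk1 stood at 0.403 ± 0.109, since its annotated exons cover 15296 bases, and Il25 at 0.0704 ± 0.0568. In KO crypts the order began with Alox5ap at 2.18 ± 0.88 and Rgs13 at 2.03 ± 1.74, and each of the 10 overlapped the next. In WT spheroids Ptgs1 came first at 1.63 ± 0.05 (n = 4), clear of Il17rb at 0.293 ± 0.103, and every later member overlapped the next. The length is the union of all annotated exons, so a gene read mainly from a short transcript is understated.

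In spheroids the members were scarce, and none was called. Of the 10, 5 passed the filter (Pou2f3, Trpm5, Dclk1, Ptgs1 and Il17rb), and 0 of 5 were called by edgeR, against 0.232% of 15915 genes (0.0440% lower). At an unadjusted p below 0.05 there was 1 of 5, against 14.6% of all genes, and DESeq2 called 1 (Ptgs1, adjusted p = 0.0456). Ptgs1 stood at 3.39, 4.86, 2.54 and 5.24 CPM in KO libraries 1 to 4 and at 6.27, 6.43, 6.06 and 6.52 CPM in WT libraries 1 to 4. All KO libraries were below all WT libraries, as for 8.56% of the genes tested, and an exact two-sided permutation test on CPM gave 0.0286, the smallest p that 4 against 4 allow. Its log2 fold change was -0.66 ± 0.21 with an adjusted p of 0.201 by edgeR. The summed level of the 10 members, most of it Ptgs1, lay between 5.44 and 7.84 CPM in KO and between 9.38 and 10.02 CPM in WT spheroids.

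Il17rb stood at 1.15, 0.570, 0.518 and 0.429 CPM in KO spheroids and at 1.31, 1.49, 0.859 and 0.676 CPM in WT spheroids, with KO library 1 inside the WT range (-0.69 ± 0.37, adjusted p = 0.417 by edgeR). Pou2f3 stood between 0.461 and 0.506 CPM in KO and between 0.344 and 0.783 CPM in WT, a difference of -0.09 ± 0.32 whose sign changed with the processing. Trpm5 differed by -0.23 ± 0.24 and Dclk1 by 0.19 ± 0.38, with overlapping groups. The other members were traces: over the 8 libraries Sh2d6 had 24 reads in KO and 36 in WT, Il25 16 and 10, Alox5ap 8 and 6, Gfi1b 4 and 7, and Rgs13 2 and 2. Of the wider list 23 of 44 were tested and 0 were called, with a median of 0.15. The smallest p there was that of Cd24a, a glycoprotein found on several secretory lineages, at 0.35 ± 0.07 (adjusted p = 0.0920 by edgeR).

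WT spheroids held less of most members than WT crypts. In 1 fit of both mouse tables the log2 level in WT spheroids minus that in WT crypts was -3.98 ± 0.62 (SE) for Dclk1, -3.70 ± 0.31 for Trpm5, -2.80 ± 0.54 for Pou2f3 and -2.08 ± 0.33 for Il17rb. For Ptgs1 it was -0.28 ± 0.34. Alox5ap, with 3367 reads in 6 WT crypt libraries, had 6 in 4 WT spheroid libraries, and Rgs13, with 4862 reads in WT crypts, had 2. Culture, tissue preparation and count table differ together between these groups, so their parts cannot be told apart. In the same fit the KO effect in crypts minus that in spheroids was below 0 for all 9 members, from -2.04 ± 0.77 for Dclk1 (adjusted p = 0.138 by edgeR) to -0.53 ± 0.39 for Trpm5 (0.460), and 0 of 9 passed, against 2.86% of 18485 genes. At these levels the crypt and spheroid effects on the members were not shown to differ. Without crypt KO libraries 4, 5 and 6, 10 members were tested, the difference ran from -1.62 ± 1.08 for Alox5ap to -0.12 ± 1.37 for Il25, and 0 of 10 passed, against 0.592% of 18591 genes.

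**Figure D5:**
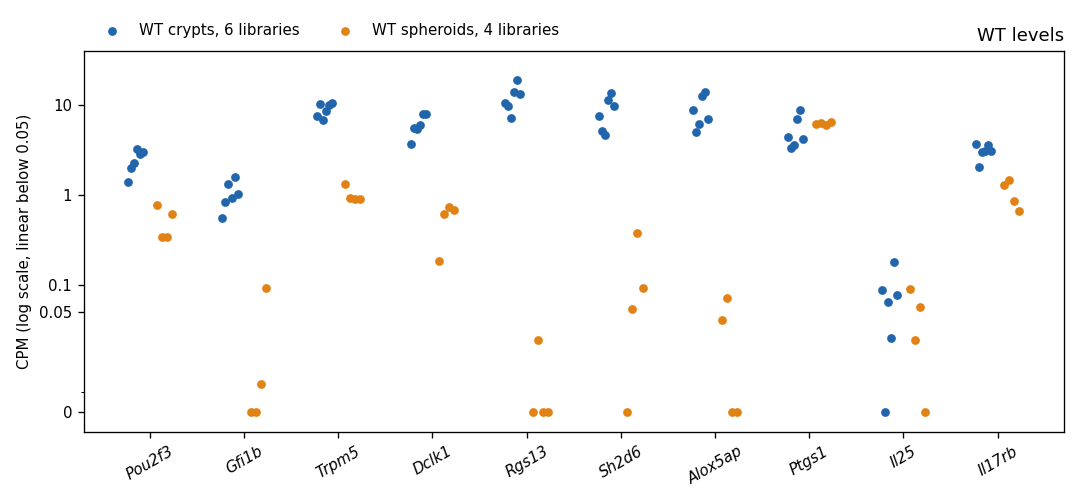
Level in CPM (y axis, log scale, linear below 0.05) of each member in the 6 WT crypt and 4 WT spheroid libraries (points). Ptgs1 lies at 3.33 to 8.97 CPM in crypts and 6.06 to 6.52 CPM in spheroids, while Rgs13 lies at 7.30 to 19.3 CPM in crypts and at no more than 0.0364 CPM in spheroids.

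Caco-2 cells lacked much of the programme, and 3 of the members they did express fell with the hairpin. DCLK1 and RGS13 had no read in any of the 6 libraries, which allows up to 3 reads in each, or at most 0.0804 CPM, for counting error only. POU2F3 had 3 reads with the hairpin and 4 with scramble, IL25 had 1 and 2, and TRPM5 had 22 and 17. Of the 5 members tested, 3 were called lower, against 16.2% of 18905 genes (31.9% in either direction), and 4 of 5 had groups that did not overlap, against 42.4% of all genes.

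GFI1B stood at 0.945, 0.765 and 1.06 CPM with the hairpin and at 1.88, 1.89 and 1.89 CPM with scramble, where the 3 libraries were nearly equal (log2 fold change -1.02 ± 0.26, adjusted p = 0.00139 by edgeR). IL17RB, the most abundant member in these cells, stood at 23.1, 24.0 and 21 CPM against 27.6, 28.7 and 26.3 CPM, a small fall of 0.28 ± 0.07 on the log2 scale (adjusted p = 7.14e-04 by edgeR). SH2D6 stood at 1.05, 0.581 and 0.407 CPM against 1.29, 1.30 and 1.30 CPM (-0.94 ± 0.33, adjusted p = 0.0227 by edgeR). That call was lost with DESeq2 (adjusted p = 0.0694) and when hairpin library 2 or 3 or scramble library 2 or 3 was left out. ALOX5AP stood at 0.499, 0.924 and 0.520 CPM against 1.15, 0.917 and 1.06 CPM (-0.69 ± 0.35, adjusted p = 0.133 by edgeR), and was called without hairpin library 2 (-1.02, adjusted p = 0.0422). PTGS1 stood the other way, at 0.551, 0.422 and 0.271 CPM against 0.161, 0.219 and 0.173 CPM, on 49 and 25 reads (1.14 ± 0.55, adjusted p = 0.118 by edgeR). An exact permutation test of 3 against 3 libraries cannot give a p below 0.100.

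Of the wider list, 23 were tested in Caco-2, with a median of 0.05. There 5 were called higher: ITPR2, a calcium-release channel (0.75 ± 0.09), SKAP2 (0.62 ± 0.04), NEBL (0.56 ± 0.09), PLCB2 (0.47 ± 0.17) and CD24 (0.24 ± 0.06). The 2 called lower were CD300LF (-0.97 ± 0.31) and COLCA2, a coactivator partner of POU2F3 (-0.29 ± 0.08). Of all 18905 genes tested in Caco-2, 15.7% were called higher and 16.2% lower. SUCNR1, FFAR3, GNAT3 and LY6G6F had no read in any Caco-2 library. Goblet genes gave 3 falls among 4 tested, ZG16 (-2.14 ± 0.11), AGR2 (-0.81 ± 0.04) and TFF3 (-0.44 ± 0.17). Of the epithelial genes, LGR5, a stem cell receptor, rose by 1.48 ± 0.07 and KRT8 fell by 0.07 ± 0.03. Elsewhere on the lists of other cells, LYZ, the lysozyme gene on the Paneth list (-0.57 ± 0.07), REG4 on the enteroendocrine list (-1.42 ± 0.36), CSF1R (-0.85 ± 0.18), PECAM1 (-0.91 ± 0.15) and PDGFRA (-0.28 ± 0.05) fell. ITGA2B (1.09 ± 0.12), COL3A1 (1.13 ± 0.38) and RORA (0.53 ± 0.13) rose.

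Some members share their locus with another gene, and the sources used here do not say whether reads were counted by strand. Actr8 overlaps Il17rb on the opposite strand, and 3.80% of the exon bases of Il17rb lie in exons of Actr8. The same share was 3.44% for Trpm5 with Tssc4, 3.81% for Ptgs1 with Gm43621, 13.3% for Alox5ap with the antisense gene Gm19719 and 0.569% for Dclk1 with Gm42609. Reads in these stretches cannot be assigned to 1 gene without strand.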

How the data were processed

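RNA was sequenced from mouse spheroids, mouse crypts and Caco-2 cells. The authors deposited 1 table of raw read counts per system. The submitters' processing notes name STAR, DESeq2 and mm10, without versions. The Caco-2 table holds human identifiers of a build that the sources used here do not give. Crypt columns name genotype but no day, so days were pooled. Repeated identical entries (276, 276 and 116) were removed. Each table was fitted with edgeR 4.0.16 (R 4.3.3): filterByExpr, TMM, robust quasi-likelihood F test, Benjamini-Hochberg adjustment over all genes tested. The SE is the log2 fold change divided by the square root of F. The script was tested on simulated data. Alternatives were RLE factors, no filter, a filter of 1 CPM, voom with quality weights (limma 3.58.1), DESeq2 1.42.0, a minimum log2 fold change of 1, a replicate block, and each library left out. No pair of replicates agreed within sampling noise (chi-square per degree of freedom at least 3.98). The text names all 10 members in each system, the target, called genes of the other lists and genes most like the members. Of lists without a call, not all of the 2 genes of smallest p are named. A gene that these rules take is not reported here, and counts over lists include it. The members and lists were chosen with earlier results of these data known.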

Additional observations from a re-analysis of the deposited data

Results flagged for a closer look

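Within groups of 4 or 6 libraries, 5 of the 38 groups examined held a library far from the others by Dixon's criterion. Chance flags about 1 in 20 where values are normally distributed. That rate does not hold for groups with few reads, such as those of Gfi1b and Il25 below, so the 2 rates cannot be compared. Il17rb in KO crypt library 5 stood at 0.513 CPM, against 1.13 CPM in the next lowest KO library. Il25 in KO crypt library 1 stood at 0.219 CPM, against 0.0630 CPM in the next. Trpm5 in WT spheroid library 1 stood at 1.34 CPM, against 0.927 CPM in the next. Gfi1b, a trace in spheroids, stood at 0.0633 CPM in KO library 2 (4 reads), with 0 in the other KO libraries, and at 0.0922 CPM in WT library 4 (6 reads), against 0.0143 CPM in the next.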

How the results depend on the processing

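In crypts, all 9 tested members kept a fold change below 0 under RLE factors, no filter, DESeq2, voom and each of the 12 fits that left out 1 library, as did the 8 tested under the stricter filter. The number called was 4 without the filter (Gfi1b, Dclk1 and Sh2d6 at adjusted p of 0.0890, 0.0653 and 0.0501 by edgeR) and 4 to 9 with 1 library left out, with 4 when KO library 4 or WT library 5 was. Rgs13 and Trpm5 passed with DESeq2, voom and the stricter filter. All genes called in crypts numbered 7179 with voom, 924 without KO libraries 4, 5 and 6, 1798 at a minimum log2 fold change of 1 in size and 2749 to 5005 with 1 library left out. Wider tuft genes called lower numbered 24 with voom, 5 without KO libraries 4, 5 and 6 and 8 to 19 with 1 library left out. Those among the 100 genes most like the members numbered 7, and 4 with genotype means kept and 4 in the WT libraries alone. In spheroids, genes called numbered 154 without the filter, 577 with DESeq2, 9 at the minimum fold change and 3 to 160 with 1 library left out, and members called numbered 1 with DESeq2 and 0 in every leave-one-out fit. Pou2f3 in spheroids changed sign with voom (0.081) and ran from -0.25 to 0.16 with 1 library left out, positive without WT library 1 or 4 (0.16 and 0.01), and Dclk1 ran from -0.075, without WT library 1, to 0.36. In Caco-2, 562 genes passed the minimum fold change. The cause of these changes was not tested. Same-numbered libraries did not deviate together (r of -0.03 to 0.10 in spheroids, -0.07 to 0.11 in crypts and 0.003 to 0.04 in Caco-2, each library closest to its own number in 1 of 8, 1 of 12 and 4 of 6), so the numbers were not taken as pairs. With a replicate block 71 genes were called in spheroids, and the calls of all 5 tested members stayed as they were in spheroids and Caco-2. In crypts, whose running numbers were tried as a replicate block after the data were seen, 2732 genes were called, 3 members (Alox5ap, Ptgs1 and Il17rb) and 7 wider tuft genes lower. There the fold changes of all 9 stayed below 0, and Pou2f3, Gfi1b, Dclk1 and Sh2d6 stood at adjusted p of 0.0509, 0.0957, 0.0636 and 0.0796 by edgeR. Low counts kept Il25 out of the main fit of each system, as they did 4 more members in spheroids and POU2F3, TRPM5, DCLK1 and RGS13 in Caco-2.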
